A study of Mus musculus with 6 samples.

Results

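The neutrophil chemokine cluster of mouse chromosome 5 holds Cxcl5, Ppbp, Pf4, Cxcl3, Cxcl15, Cxcl1 and Cxcl2 and ends beside Mthfd2l. CTBP2 binding across it was read from 20 sites among the 62236 sites of the deposited table. The members were all sites of the cluster's window, from the first at 90889606 to the last ending at 91079632 of chromosome 5, taken by position alone. The cluster itself was chosen with earlier results of these data known. The strongest changes after LPS lay at 3 sites, each 2.05 to 2.55 kb past the start of Cxcl2, Cxcl1 or Cxcl3. The other 17 sites changed by -0.44 to 1.22 on the log2 scale.

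CXCL1, CXCL2 and CXCL3 are secreted chemokines that draw neutrophils to a site of infection through the receptor CXCR2. Macrophages make them within hours of sensing lipopolysaccharide (LPS), a bacterial cell wall component, through TLR4 and the NF-kB transcription factors. CTBP2 is a transcriptional co-repressor that does not bind a DNA sequence by itself and reaches chromatin through DNA-binding factors, where it assembles histone-modifying enzymes.

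The study immunoprecipitated CTBP2 from crosslinked chromatin of bone marrow-derived macrophages and sequenced the recovered DNA. The marrow came from male wildtype C57BL6/N mice aged 6 to 12 weeks, and the cells were differentiated until day 6 with L929 cell supernatant. The vehicle group (3 libraries) received PBS and the LPS group (3 libraries) received 100 ng/ml LPS, and both were fixed after 3 h. The labels do not say that the replicates came from separate animals or cultures, so p-values cover the spread among these libraries alone, and that spread may be technical.

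Each value below is a multiple of the library's median site, that is, the deposited signal divided by the median of its column. All members have the same width. Taking 1 step of a column as 1 read, 3243258 to 4553179 reads per library fell in sites, and the median site held 39 to 55. Pearson's r across sites was 0.890 to 0.932 between libraries of a group and 0.692 to 0.763 between groups. Of the placed marker genes, 6 of 7 macrophage genes, 2 of 6 neutrophil genes (S100a8 and Camp), 0 of 4 lymphocyte genes and 0 of 1 stromal gene had a site within 1 kb. No such share was computed over all genes. In the lists of genes that are not markers it ran from 0 of 3 placed receptor genes to 5 of 6 placed LPS sensing genes. These counts therefore do not identify a cell type. Within 10 kb of the markers, limma called 1 site higher and 4 lower of 22 for macrophage genes, 1 higher and 1 lower of 6 for lymphocyte genes, and 0 of 9 for neutrophil genes (1 with an unadjusted p under 0.05). Over all sites 16.1% were called higher and 13.5% lower. No input or control immunoprecipitation was used here.

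The table's site positions and its gene columns did not line up, and its names are not used here to say where a member lies. Of the 20 members, 14 carry the name Mthfd2l, 3 Cxcl1 and 3 Cxcl2, and for 1 of them the name is the gene with the nearest start. Gene starts of GRCm38.p6 were therefore placed onto the site positions by an offset measured between 97 starts and the sites around the cluster. At an offset of 147.898 kb, 28 of the 97 starts (28.9%) had a site centre within 500 bp, against 12 at the best other shift and 3 with no offset. Of the distances that set the offset, 75% lay within 447 bp of it, so distances from a placed start are good to about that length at best. Only distances near the best shift were kept, which bounds this spread in advance. It is a rough guide and not a measured error for the genes of the cluster. Site coordinates are given as in the table, which does not state their build.

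The promoters of the 3 genes with the strongest sites, and of Pf4, are shown because a CTBP2 site overlapped the placed Pf4 start and the other 3 genes had theirs near the gene end. They are RefSeq sequences of GRCm38.p6, the 250 bases before each start on the plus strand, for Cxcl1 (chr5:90890995-90891244), Cxcl2 (chr5:90903649-90903898), Cxcl3 (chr5:90785851-90786100) and Pf4 (chr5:90772185-90772434), 5′ to 3′. Capitals mark the longest run of bases that the windows of Cxcl1, Cxcl2 and Cxcl3 share, GGGAATTTCCC, which has the form of a kappaB site, the sequence that NF-kB dimers recognise.
Cxcl1: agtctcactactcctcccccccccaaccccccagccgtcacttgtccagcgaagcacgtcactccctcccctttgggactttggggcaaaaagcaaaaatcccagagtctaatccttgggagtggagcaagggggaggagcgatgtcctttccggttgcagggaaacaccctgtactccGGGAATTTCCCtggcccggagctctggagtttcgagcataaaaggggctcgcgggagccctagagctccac
Cxcl2: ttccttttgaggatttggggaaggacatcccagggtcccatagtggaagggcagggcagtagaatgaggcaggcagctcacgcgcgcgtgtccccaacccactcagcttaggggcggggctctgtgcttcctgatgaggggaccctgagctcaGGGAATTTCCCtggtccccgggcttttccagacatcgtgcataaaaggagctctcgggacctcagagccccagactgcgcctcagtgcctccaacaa
Cxcl3: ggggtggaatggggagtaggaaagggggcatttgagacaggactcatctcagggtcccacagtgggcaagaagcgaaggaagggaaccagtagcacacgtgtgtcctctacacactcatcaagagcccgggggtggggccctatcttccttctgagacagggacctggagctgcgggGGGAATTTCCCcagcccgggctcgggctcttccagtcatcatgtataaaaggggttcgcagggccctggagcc
Pf4: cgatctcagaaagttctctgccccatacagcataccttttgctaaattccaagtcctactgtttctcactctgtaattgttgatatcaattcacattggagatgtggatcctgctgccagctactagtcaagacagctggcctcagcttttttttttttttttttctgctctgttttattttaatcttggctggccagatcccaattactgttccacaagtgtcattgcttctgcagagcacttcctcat

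The shared run of 11 bases began at -71 in Cxcl1, counting -1 as the base before the start, at -97 in Cxcl2 and at -73 in Cxcl3. It was not found in the same window of Pf4, Ppbp or Cxcl15, and Cxcl5 had no entry in the promoter table (6 of 7 ligand genes matched). Of 27025 genes in that table, 11 (0.0407%) held it on either strand, these 3 genes, from which it was read, included. A looser kappaB form, GGG and CC with any 5 bases between them, was held by 45.4% of genes. It includes the shared run and occurred 4, 3 and 5 times in Cxcl1, Cxcl2 and Cxcl3, with both strands and overlapping matches counted, and 0 times in Pf4, Ppbp and Cxcl15.

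Other motifs searched on both strands gave no match in Cxcl1, Cxcl2 or Cxcl3. These were TGANTCA, read by AP-1 (6.87% of genes), TTGCNNAA, read by C/EBP factors (9.55%), and CACCTG, the E-box read by ZEB factors that can carry CTBP2 (17.1%). In the Pf4 window TTGCNNAA occurred once, at -212. TATAAA (13% of genes) occurred in Cxcl3 at -30 and in neither Cxcl1 nor Cxcl2. A match is a description of these letters and not a measured binding site.

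Cxcl2 had the strongest response of the cluster. Its site (chromosome 5, 91053474 to 91054474) is centred 2.18 kb past the placed start and 0.137 kb past the gene's far end, a distance within the spread of the placement. The vehicle libraries held 0.488, 0.491 and 0.641 multiples of the median and the LPS libraries 13.7, 15.8 and 23.3. Every LPS library lay far above every vehicle library, and in vehicle the site was weaker than most sites of the genome, at the 12.4th percentile. The means were 0.540 ± 0.0876 and 17.6 ± 5.04 (SD, n = 3 each), a ratio of 32.6. The log2 change was 4.95 (SE 0.16, limma adjusted p = 2.87e-17), the smallest p of the 62236 sites and the second largest change. In LPS it was the 18th strongest site of the table.

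The Cxcl1 site (91041189 to 91042189) is centred 2.55 kb past the placed Cxcl1 start and 0.669 kb past the gene's end. It held 0.756, 0.818 and 0.795 in vehicle and 7.74, 9.96 and 13.5 in LPS. The vehicle libraries were close to each other and the LPS libraries all lay above them, with LPS 3 the highest, as at Cxcl2. The means were 0.790 ± 0.0313 and 10.4 ± 2.89 (SD, n = 3 each), a ratio of 13.2. The log2 change was 3.65 (SE 0.16, limma adjusted p = 1.37e-16), second of all sites by p and sixth by size.

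The Cxcl3 site (90935551 to 90936551) has the same place relative to its gene, 2.05 kb past the placed start and 0.059 kb past the end. It also lies at -6.38 kb from the placed start of Cxcl15, a chemokine gene best known from lung epithelium. Vehicle values were 0.317, 0.491 and 0.359 and LPS values 1.67, 1.44 and 2.62. The groups did not overlap, but the LPS level stayed well below those at Cxcl1 and Cxcl2. The means were 0.389 ± 0.0906 and 1.91 ± 0.623 (SD, n = 3 each), a ratio of 4.91. The log2 change was 2.21 (SE 0.22, limma adjusted p = 2.78e-09), rank 187 by size.

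In LPS the order of the 3 sites was Cxcl2, Cxcl1, Cxcl3 in all 3 libraries. The ratio of the Cxcl2 to the Cxcl1 site was 0.645, 0.60 and 0.806 in vehicle and 1.77, 1.59 and 1.73 in LPS. The order in vehicle was thus the other way, but it rests on few reads and is limited by counting error. Taking 1 step as 1 read, the vehicle libraries held 20, 27 and 25 reads at Cxcl2 and 31, 45 and 31 at Cxcl1. The log2 difference of the Cxcl2 to Cxcl1 ratio was 1.32 (exact two-sided permutation test, p = 0.1, adjusted p = 0.167 over 5 tests of differences). The ratio of the Cxcl1 to the Cxcl3 site was 2.38, 1.67 and 2.21 in vehicle and 4.63, 6.94 and 5.15 in LPS, a log2 difference of 1.41 (exact p = 0.1, adjusted p = 0.167). With 3 libraries against 3 the smallest p this test allows is 0.1, and these 2 ratios were chosen after their values were seen.

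**Figure D1:**
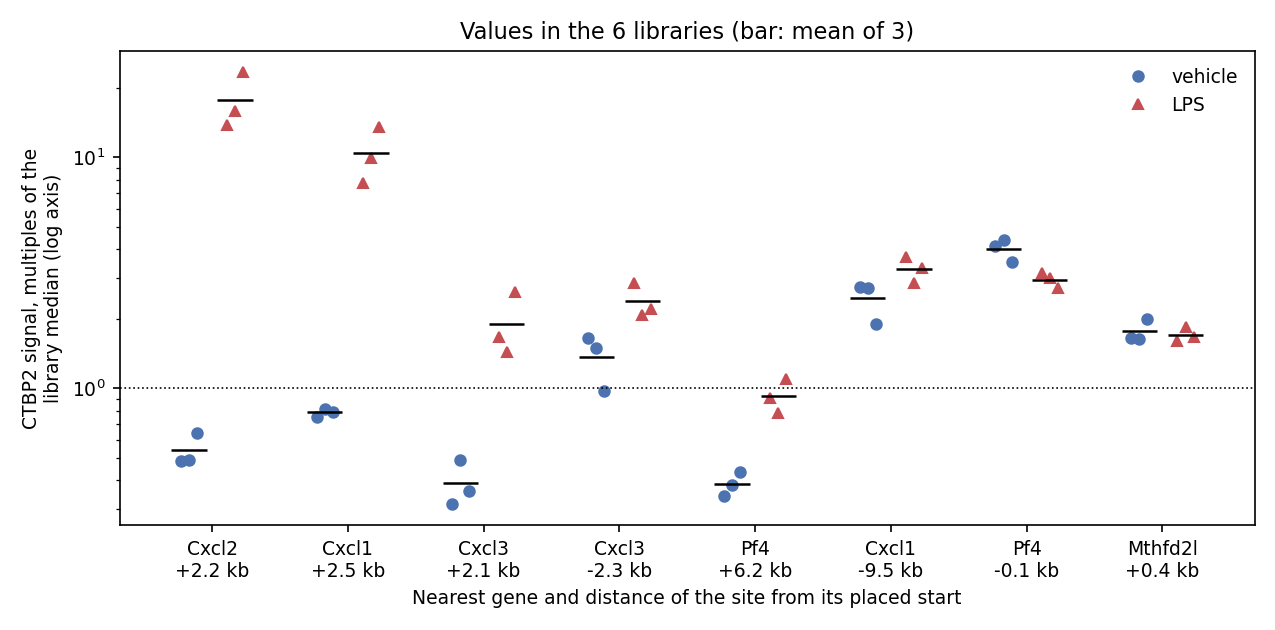
CTBP2 signal of 8 members in each library (points), as multiples of the library's median site on a log axis, with bars at the mean of 3. LPS triangles lie above all vehicle circles at the first 6 members, below them at the Pf4 start, and among them at Mthfd2l.

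The plot of 8 members by library sets the strongest sites beside the weaker calls described next. Across the whole cluster 6 of 20 members rose after LPS (30%, where 16.1% of all sites were called higher), 1 fell (13.5% of all sites were called lower), and 13 were not called. A call means a limma adjusted p under 0.05 over all sites, on log2(multiple + 0.02), a scale that understates change at low values. The median log2 change of the 20 members was 0.28, against -0.02 over all sites, and 15 of 20 lay above 0, against 48.5% of all sites. Of the members, 3 (15%) had a log2 change of at least 2, as did 0.522% of all sites. At 8 members the LPS libraries were all higher than any vehicle library (21.6% of all sites), and at 1 they were all lower (20.6%).

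**Figure D2:**
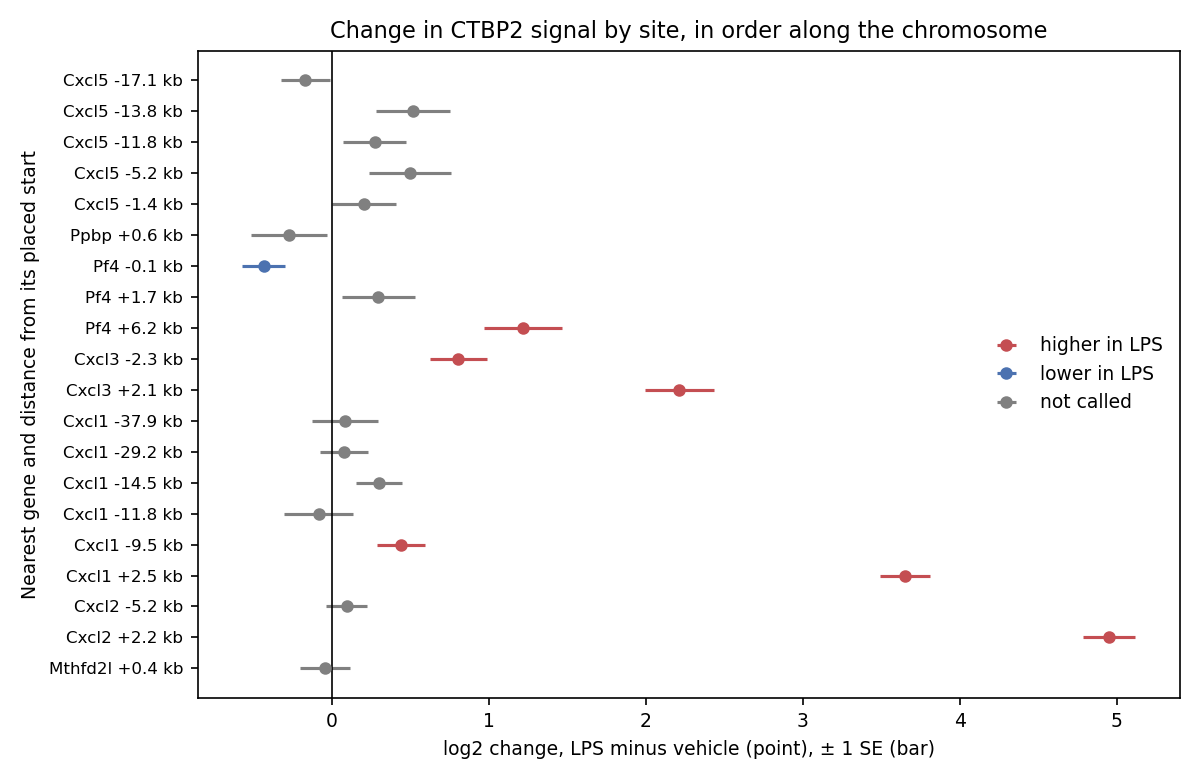
log2 change (LPS minus vehicle, point) with 1 SE (bar) for the 20 members in chromosomal order, named by the nearest placed gene start and the distance from it; for Cxcl5, whose strand was not known, the distance is from its lower coordinate. The Cxcl2, Cxcl1 and Cxcl3 sites at +2.2, +2.5 and +2.1 kb stand to the right of the others, and the site at the Pf4 start is the lower one.

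Cxcl3 and Pf4 carried a further pair of higher sites. The site at -2.28 kb from the Cxcl3 start (90931223 to 90932223), singled out after its values were seen, held 1.66, 1.49 and 0.974 in vehicle and 2.86, 2.07 and 2.21 in LPS. The groups were separate, with a log2 change of 0.81 (SE 0.18, limma adjusted p = 0.00098). Its vehicle level was higher than that of the site near the end of the same gene, and its change was smaller.

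Pf4 encodes platelet factor 4, a chemokine stored in platelet granules and also made by macrophages. Its site 6.20 kb past the start (90926032 to 90927032) also lies within 10 kb of the placed Cxcl3 start. All 3 sites within 10 kb of the Cxcl3 start were called higher, as were 16.1% of all sites. The site past Pf4 held 0.342, 0.382 and 0.436 in vehicle and 0.907, 0.782 and 1.10 in LPS. All LPS libraries were above all vehicle libraries, with a log2 change of 1.22 (SE 0.25, limma adjusted p = 0.000274). On the values as deposited, without scaling, neither this site (1.27, limma adjusted p = 0.214) nor the one before Cxcl3 (0.87, limma adjusted p = 0.567) was called.

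The site at the Pf4 start, centred at -0.06 kb (90919773 to 90920773), was the only member that fell. It held 4.12, 4.4 and 3.54 in vehicle and 3.163, 3.00 and 2.71 in LPS. It was the strongest member in vehicle, at the 98.5th percentile of all sites, and every LPS library lay below every vehicle library. The means were 4.02 ± 0.440 and 2.96 ± 0.229 (SD, n = 3 each), a log2 change of -0.44 (SE 0.14, limma adjusted p = 0.0137). The call was lost on the values as deposited (-0.37, limma adjusted p = 0.982) and without vehicle 1 (0.0594), vehicle 2 (0.0859), LPS 2 (0.0502) or LPS 3 (0.0545), and with neither the trend nor the robust option of limma (0.0730), the adjusted p in parentheses.

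Of 5 sites at -9.46 to -37.9 kb from the Cxcl1 start, the nearest (91029188 to 91030188) was called, and 4 were not. That site, singled out after its values were seen, held 2.76, 2.71 and 1.897 in vehicle and 3.70, 2.87 and 3.33 in LPS. The groups were separate by a narrow margin, with a log2 change of 0.44 (SE 0.15, limma adjusted p = 0.0284). The call was lost as deposited (0.50, limma adjusted p = 0.922) and without vehicle 3 (0.168), LPS 1 (0.123) or LPS 3 (0.0709), and with neither the trend nor the robust option of limma (0.117), the adjusted p in parentheses.

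The site at -5.17 kb from the Cxcl2 start (91046131 to 91047131), also singled out after its values were seen, was strong in both groups. Its vehicle values were 3.81, 3.53 and 3.31 and its LPS values 4.02, 3.67 and 3.65. The groups overlapped, at the 97.4th percentile of all sites in vehicle, and the log2 change was 0.09 (SE 0.13, limma adjusted p = 0.630). It lies between the 2 sites of strongest change.

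With each site assigned to its nearest placed start, Cxcl5, Ppbp and Mthfd2l had no called site. The lower site at the Pf4 start also lies 3.86 kb past the placed Ppbp start. Cxcl5, whose product CXCL5 also acts through CXCR2, had 5 sites at 1.35 to 17.1 kb from its lower coordinate, with log2 changes of -0.17 to 0.52. By limma 0 of the 5 were called (adjusted p 0.0952 to 0.487), and 1 had an unadjusted p under 0.05. The one with the smallest p (90892939 to 90893939) held 0.634, 0.527 and 0.436 in vehicle and 0.791, 0.691 and 0.808 in LPS. Its groups did not overlap.

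Ppbp encodes the precursor of platelet basic protein. Its site 0.578 kb past the start (90916494 to 90917494) held 0.927, 0.491 and 0.923 in vehicle and 0.535, 0.709 and 0.615 in LPS. The groups overlapped, with a log2 change of -0.28 (limma adjusted p = 0.418). Mthfd2l encodes a mitochondrial folate enzyme and is no chemokine. Its site 0.361 kb past the start (91078632 to 91079632) held 1.66, 1.64 and 2.00 in vehicle and 1.60, 1.84 and 1.67 in LPS, which overlapped, with a log2 change of -0.05 (limma adjusted p = 0.859).

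Over the 13 members not called, the log2 change ran from -0.28 to 0.52, and 1 had an unadjusted p under 0.05. At 2 of them the groups did not overlap all the same. The members lie 4.94 kb apart in the median, and the largest gap, 65.2 kb, separates the Cxcl3 site from the sites before Cxcl1 and holds Cxcl15 with no site. Within 1 kb of a placed start lay 3 members, those of Ppbp, Pf4 and Mthfd2l.

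**Figure D3:**
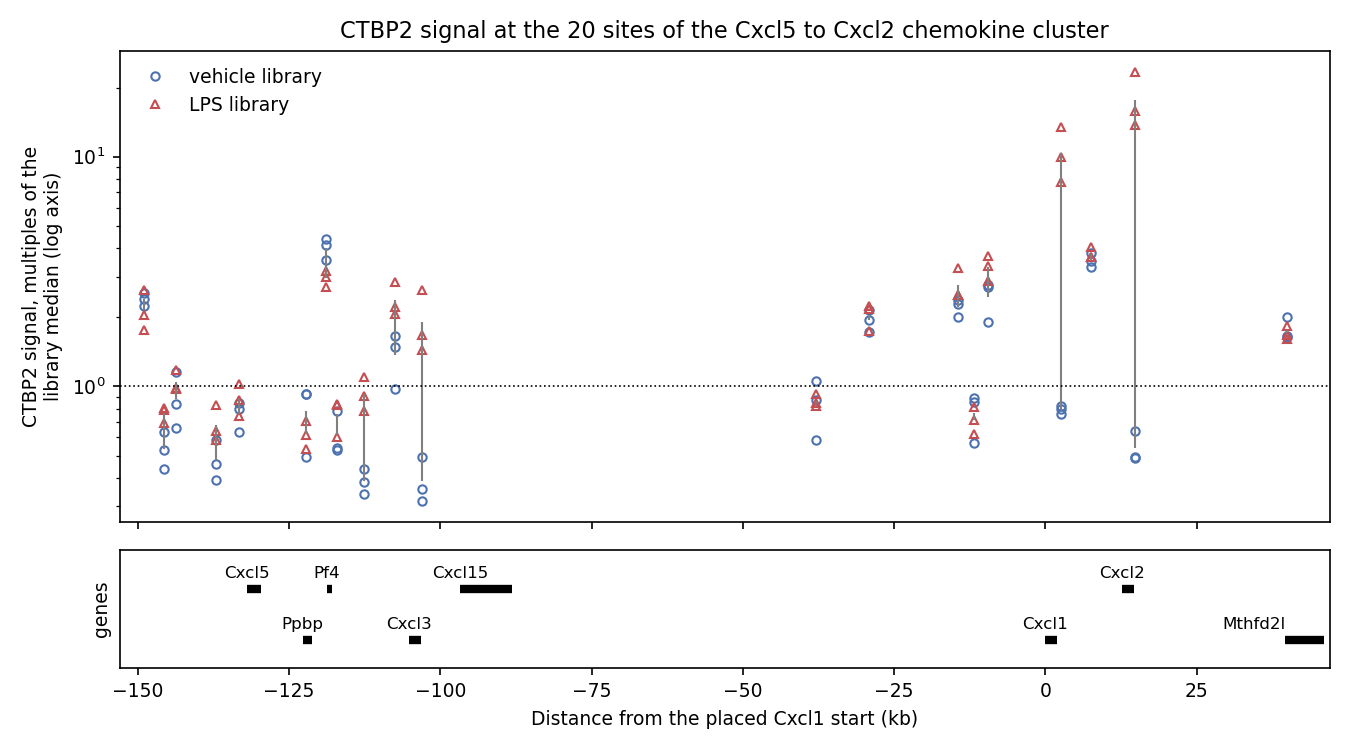
CTBP2 signal in each library (circles vehicle, triangles LPS; multiples of the library's median site, log axis; grey lines join the group means) against distance from the placed Cxcl1 start in kb, with the placed genes below; Mthfd2l runs on past the right edge. Triangles stand far above circles near the ends of Cxcl1 and Cxcl2, and less so near that of Cxcl3.

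The map of the cluster shows the members in 2 parts on either side of that gap. The 9 sites on the Cxcl1 and Cxcl2 side summed to 15.1, 15.3 and 14.2 in vehicle and 37.2, 39.8 and 52.5 in LPS, 2.87-fold higher in LPS. The 11 sites on the Cxcl5, Pf4 and Cxcl3 side summed to 12.7, 12.9 and 12.2 in vehicle and 14.8, 14.0 and 16.3 in LPS, 1.19-fold higher. Neither sum overlapped between groups. The change of the first side exceeded that of the second by 1.27 on the log2 scale (exact two-sided permutation test over 6 libraries, p = 0.1, adjusted p = 0.167). Without the Cxcl1 and Cxcl2 sites of strongest change, both on the first side and picked after their values were seen, this difference was -0.09 (exact p = 0.2). Taking the largest gains from 1 side lowers the difference by construction. The value only describes how far the difference rested on those 2 sites.

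The summed signal of all 20 members was 27.9, 28.2 and 26.4 in vehicle and 52.1, 53.9 and 68.9 in LPS. The vehicle libraries were nearly equal and all LPS libraries were higher, 2.10-fold on average (log2 1.07, exact two-sided permutation test, p = 0.1, the smallest that 3 against 3 allows). The strongest Cxcl1 and Cxcl2 sites held 4.47 to 5.44% of the sum in vehicle and 41.3 to 53.4% in LPS. Without them the sums were 26.6, 26.9 and 24.9 in vehicle and 30.6, 28.1 and 32.1 in LPS, 1.16-fold higher.

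**Figure D4:**
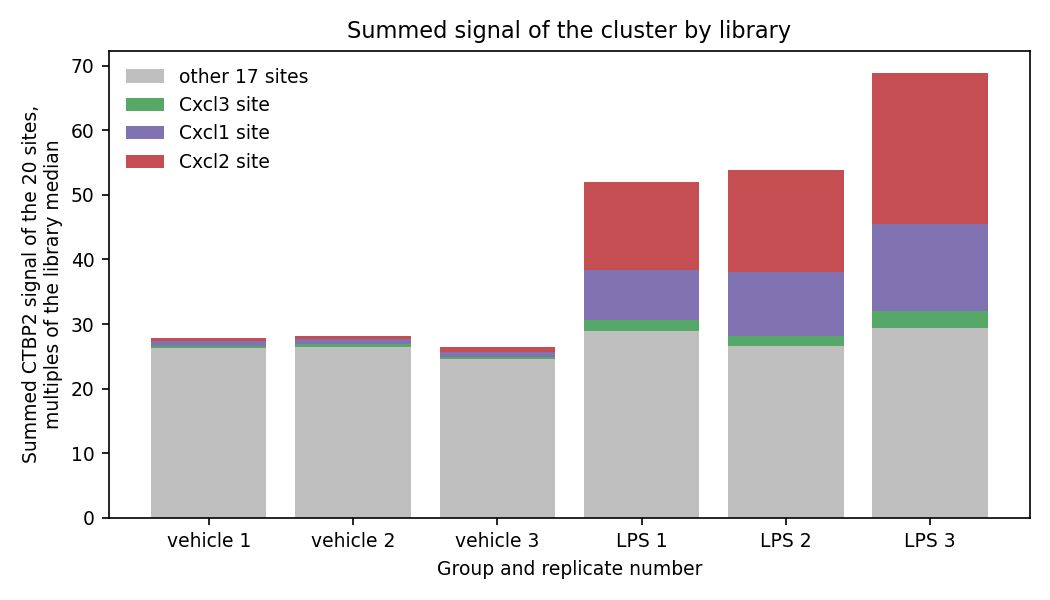
Summed CTBP2 signal of the 20 members in each library, in multiples of the library's median site, from 0, divided into the Cxcl2, Cxcl1 and Cxcl3 sites near the gene ends and the other 17 members. The coloured portions make up most of the difference between the vehicle and LPS bars.

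The plot of summed signal shows the other 17 members at similar heights in all libraries. In vehicle the levels of the 20 members were mixed. At 12 of 20 the mean lay below 1, as at 50.5% of all sites, and 6 members, among them those at the Pf4 start and before Cxcl2, were above the 80th percentile of all sites. Over the 17 members besides the Cxcl2, Cxcl1 and Cxcl3 sites near the gene ends, the median level was 0.883 in vehicle and 1.046 in LPS.

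**Figure D5:**
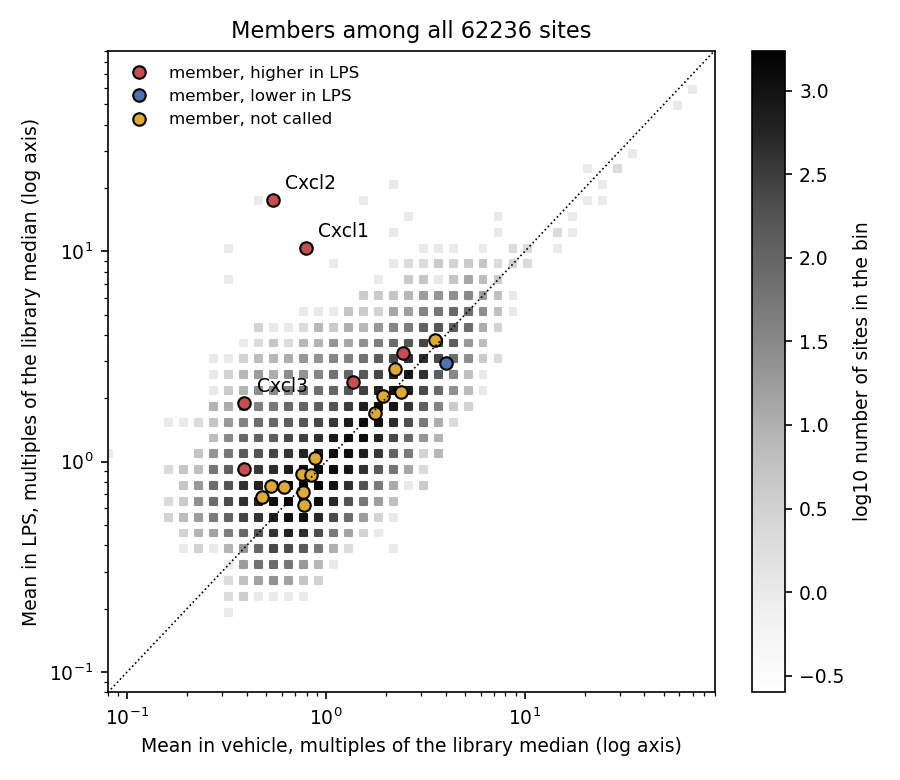
Mean LPS signal against mean vehicle signal, both as multiples of the library's median site on log axes; grey squares give the number of sites per bin over all 62236 sites, and circles the 20 members coloured by call. The Cxcl2 and Cxcl1 sites lie far above the dotted line of equality, in a range with few other sites, and the Cxcl3 site lies above it at a lower level.

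The plot of LPS against vehicle levels places the members among all sites. The authors' deposited table, with its own fold changes and FDR, called 3 members higher and 0 lower at an FDR under 0.05, against 4.01% and 0.37% of all sites. These were the Cxcl2, Cxcl1 and Cxcl3 sites near the gene ends, with log2 folds in the authors' deposited table of 4.96 (FDR 6.93e-26), 3.32 (FDR 4.12e-14) and 1.84 (FDR 4.91e-05). The authors' folds are not the plain difference of their log2 group means (9.06 in LPS and 5.27 in vehicle at the Cxcl1 site). They are thus another measure than the limma changes. By limma, the same 3 sites were called in all 14 alternative settings, with log2 changes of 4.09 to 5.11 at Cxcl2, 3.05 to 3.84 at Cxcl1 and 1.41 to 2.39 at Cxcl3.

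Just outside the cluster, the nearest site before it (90879048 to 90880048) was not called (0.49, limma adjusted p = 0.120). The next one, 23.7 kb before the first member (90865921 to 90866921), rose from a mean of 0.650 to 2.30, a log2 change of 1.80 (limma adjusted p = 3.31e-09). On the far side the sites 29.9 and 33.4 kb past the last member rose by 0.58 and 0.59 on the log2 scale (limma adjusted p = 0.0303 and 0.0338). Called sites were thus not limited to the window of the cluster.

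The summed change of the cluster was set beside those of 2 other chemokine clusters. Over all sites 16.1% were called higher and 13.5% lower, and of the 20 members 6 were higher and 1 lower. The sites around Cxcl9, Cxcl10 and Cxcl11, chemokines that draw T cells through CXCR3, summed to 12.7, 12.8 and 11.5 in vehicle and 20.8, 25.6 and 28.2 in LPS (12 sites, 5 higher, 0 lower, 2.00-fold). The change of the Cxcl1 and Cxcl2 cluster differed from it by 0.07 on the log2 scale (exact permutation p = 0.4, adjusted p = 0.4). The sites from Ccl5 to Ccl4 gave 44.9, 44.2 and 49.3 in vehicle and 84.1, 102 and 130 in LPS (35 sites, 16 higher, 1 lower, 2.25-fold), a difference of -0.10 (exact permutation p = 0.2, adjusted p = 0.25). Both differences changed sign with the mean of log2 values in place of the sum, to -0.10 and 0.07, and a p that misses the threshold does not show that the clusters act alike.

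The receptors of these ligands had few sites. Cxcr1, a second receptor for such chemokines, had 1 site within 10 kb of its placed start, with a log2 change of 0.29 (limma adjusted p = 0.157). Cxcr2, the main neutrophil receptor for CXCL1 and CXCL2, had 1 with 0.26 (limma adjusted p = 0.226), and Ackr1, a scavenging receptor, had none. Of the 2 receptor sites 0 were called by limma, and 0 had an unadjusted p under 0.05.

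The 30 listed genes besides the ligands were counted in the same way. They cover the receptors, LPS sensing, NF-kB subunits and co-activators, kinases and inhibitors, and chemokine mRNA stability. Of these genes 23 could be placed and 22 had a site within 10 kb. Of their 46 sites 17 were higher (37%, against 16.1% of all sites) and 3 lower (13.5% of all sites). The lists were chosen with earlier results of these data known, so these shares are a description and no independent support. No such share was computed for genes, so counts of genes with a called site have no background. Among the LPS sensing genes 6 of 10 were placed, and 2 of their 14 sites (14.3%) were higher and 1 lower, a share of higher sites close to that of all sites. Myd88 and Irak2 had the higher sites, and Irak2 also the lower one. Myd88, the adaptor of TLR4, had a site that rose by 0.81 (limma adjusted p = 0.00294), and the lower site of Irak2, which encodes a kinase downstream of it, had a log2 change of -0.63 (limma adjusted p = 0.00424).

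All 4 placed genes of NF-kB subunits and co-activators, of 6 listed, had a higher site. Of their 8 sites 5 were higher (62.5%, against 16.1% of all sites). Nfkb2, a subunit precursor, rose by 1.43 (limma adjusted p = 1.27e-08), and Nfkbiz, a co-activator of secondary NF-kB targets, by 1.36 (limma adjusted p = 1.94e-08). Of the 5 kinases and inhibitors 3 had a higher site, with 7 of 12 sites higher (58.3%, against 16.1%). Among them were Ikbkb, the kinase that frees NF-kB (2.53, limma adjusted p = 5.83e-11), and Nfkbia, the inhibitor that holds it back (1.61, limma adjusted p = 9.23e-08). Of 10 sites at 5 placed genes acting on chemokine mRNA stability, 3 were higher and 2 lower, where 16.1% and 13.5% of all sites were. Zfp36 (1.11, limma adjusted p = 1.16e-07) and Zc3h12a (0.68, limma adjusted p = 9.04e-05), which both promote mRNA decay, had higher sites. Zfp36l1, which also promotes decay and is named after its values were seen, had a lower one (-1.24, limma adjusted p = 0.000991). Traf3ip2, a signalling adaptor, had 1 of each, and Elavl1, which stabilises mRNA, had no called site.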

How the data were processed

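CTBP2 ChIP-seq signal came from 1 table of 62236 sites (61976 of width 1001 bp) in 3 vehicle and 3 LPS libraries. Chromatin was fixed with 2 mM DSG and 1% formaldehyde and sheared to 500 to 1000 bp, per the labels' protocols. The authors deposited 1 normalised signal column per library. Up to 300 steps, its values were whole multiples of 1 step within 0.1, and the origin of that step is not stated. The deposited log2 concentration over all libraries equals the log2 of their mean signal within 0.000377. The deposited log2 fold change, p-value and FDR are the authors' own. The submitters' processing notes name BWA (0.7.17) among their tools, with Picard (3.2.0), SAMtools (1.9), FastQC, bedtools and deepTools (3.5.1), the peak caller MACS3 (3.0.0a5), R (4.4.1) and DiffBind (3.16). They list mm39 or GRCm39 beside mm10, with no role for either. How peaks of the libraries were pooled is not stated.

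Each signal column was divided by its median. Changes were tested with limma (version 3.58.1, R 4.3.3), with the trend and robust options and no covariates, on log2(multiple + 0.02) over all sites, with Benjamini-Hochberg adjustment, after the script was tested on simulated data. Sums and ratios used exact two-sided permutation tests over the 6 libraries. Peak counts were low at the weakest members: at 1 read per step they held 13 to 1213 reads per library, and counting error alone limits the weakest. Gene starts within 3 Mb were placed by the shift, up to 1 Mb in steps of 100 bp, at which most had a site within 500 bp. Listed genes were placed where at least 8 starts had a site and that number was 1.5 times that at any other shift; a gene of unknown strand over 5 kb was not placed. For each gene of the cluster, the site of smallest adjusted p and any site within 1 kb of a ligand start were named (8 sites). For other roles up to 2 genes of smallest adjusted p were named. Members and lists were chosen with earlier results of these data known. Alternatives were other scalings, pseudocounts, filters, thresholds, limma options, a narrower window, a replicate block and leaving out each library. No genome of the sites' build was used here, so site sequences are not shown.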

Additional observations from a re-analysis of the deposited data

How the results depend on the processing

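The direction and the call of the Cxcl2, Cxcl1 and Cxcl3 sites near the gene ends held under all 14 alternative fits. Of the comparisons of a single site with an alternative, 260 kept direction and side of the threshold, while 13 lost the call and 7 changed sign. The 7 lay at 4 sites that no fit called: the Mthfd2l site was 0.0163 as deposited and -0.100 to 0.0464 with 1 library left out, and the sites before Cxcl1 starting at 91000771, 91009482 and 91026852 were -0.148 to 0.266, -0.0079 to 0.185 and -0.289 to 0.0317 with 1 library left out. On the values as deposited, 3 members were higher, 0 lower and 3 of the 8 named sites called, in place of 6, 1 and 5. The count of lower members was also 0 with no trend and no robust option, where 5 were higher, and at an adjusted p under 0.01. Leaving out 1 library at a time gave 5 to 6 higher members, 0 to 1 lower and 4 to 5 named sites called. By the mean of log2 values over the sites, the difference from the Cxcl9, Cxcl10 and Cxcl11 cluster was -0.104 and that from the Ccl5 to Ccl4 cluster 0.0705, both of opposite sign to the sums. Without the 2 sites of largest change, an alternative chosen after seeing the data, the difference between the 2 sides of the cluster was -0.0910. The cause of these shifts was not tested. Over all sites, calls numbered 10033 higher and 8406 lower (54.4% higher) after scaling by the median, and 1178 and 30 (97.5% higher) as deposited.

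Same-numbered vehicle and LPS libraries had deviations correlated at 0.111, 0.0384 and 0.214. Pairs of unlike number ran from -0.205 to 0.147, the highest being vehicle 2 with LPS 1. Whether libraries of the same number were prepared together is not settled by these values. With a replicate block 6 members were higher, 1 lower and 5 named sites called, and the summed change of 1.07 had an exact p = 0.25, the smallest 3 differences allow. Over all sites the block gave 11691 higher and 10397 lower calls. At 13 to 1213 reads per member and library, counting error limits the weakest members most.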
